A study of Mus musculus with 4 samples.

Results

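The nuclear factor I family was examined in mouse neural progenitor cells, in a map of RNA contacts of DHX9. This nuclear helicase opens RNA duplexes and hybrids of RNA with DNA. The family members here are the 4 genes Nfia, Nfib, Nfic and Nfix and the 2 noncoding genes 2310067E19Rik, which lies within Nfib, and Gm19417, which lies within Nfia. A peak belonged to the family where its midpoint lay in the annotated span of a member, which held for 624 of the 43106 peaks in the list. The 4 libraries were 2 made with an antibody against DHX9 (replicates A and B) and 2 made with rabbit IgG (replicates A and B), all from the male embryonic stem cell line WT26 of the labelled strain C57BL/6x129sV. The cells were turned into neural progenitors in N2B27 medium and kept with the growth factors EGF and FGF2, so all libraries come from this cell line in culture, and the labels name no other treatment or genetic change. The method, FLASH, fixes protein to RNA with ultraviolet light, pulls the protein down and sequences the attached RNA with its strand. The data are 1 peak list for the 4 libraries together, made with PEAKachu, and each entry gives a position and a strand with no height. No value per library, replicate error or sequencing depth could therefore be given, and a gene without a peak is one without a called peak, since expression was not measured. In such a bulk culture, RNA present in few cells and little RNA in each cell cannot be told apart.

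Nuclear factor I proteins are transcription factors that bind DNA as dimers, through a conserved domain in their amino-terminal part, at a palindrome whose arms read TTGGC and GCCAA. In the developing nervous system of the mouse, Nfia and Nfib act at the switch of neural progenitors from making neurons to making glia, and Nfix acts in progenitor differentiation and in the quiescence of neural stem cells. Nfic is best known in the mouse for tooth root formation. Their genes differ greatly in length, which is mostly intron in the longest of them.

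No genome sequence was used, so the bases under most peaks are not shown here. RefSeq windows around annotated transcript starts (GRCm38.p6, 250 bases before the start and 50 from the start on) matched 4 of the 6 members: 4 windows for Nfix and 1 each for Nfia, Nfic and Gm19417. The Nfix window below is shown because it is the one among these 7 that peaks overlap, so that it prints bases of the RNA itself. It lies at chr8:84773361-84773660 on the minus strand, around the Nfix transcript start at 84773410. Capitals mark the 264 bases covered by 2 minus-strand peaks, and the last 50 bases follow the annotated start. The Gm19417 window lies at chr4:97868960-97869259 on the minus strand and is shown because it fixes the direction of that gene. Its capitals mark the motif TTGGC, and its last 50 bases are the first ones of the gene.
Nfix, peaks in capitals: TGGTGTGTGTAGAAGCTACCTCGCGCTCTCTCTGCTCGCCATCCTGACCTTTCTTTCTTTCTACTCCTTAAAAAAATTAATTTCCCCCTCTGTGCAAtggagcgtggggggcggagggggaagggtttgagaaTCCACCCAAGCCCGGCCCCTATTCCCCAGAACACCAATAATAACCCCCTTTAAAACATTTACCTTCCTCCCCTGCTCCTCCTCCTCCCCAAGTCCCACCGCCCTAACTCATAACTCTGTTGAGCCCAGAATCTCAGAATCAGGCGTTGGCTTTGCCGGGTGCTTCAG
Gm19417, TTGGC in capitals: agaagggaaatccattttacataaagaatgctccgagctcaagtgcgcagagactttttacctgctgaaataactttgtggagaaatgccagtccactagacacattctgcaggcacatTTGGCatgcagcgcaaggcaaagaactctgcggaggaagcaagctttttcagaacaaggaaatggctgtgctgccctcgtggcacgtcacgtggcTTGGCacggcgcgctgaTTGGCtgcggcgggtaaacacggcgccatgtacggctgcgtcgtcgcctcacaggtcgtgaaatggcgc

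In the Nfix window, the peaks ran from 84773356 to 84773527 (172 bases, of which 167 lay in the window) and from 84773564 to 84773681 (118 bases, 97 in the window). The first crossed this transcript start and the second lay wholly before it, both on the strand of the gene. Pyrimidines made up 65.2% of the covered bases and 19.4% of the 36 bases between the peaks, while the median over all 32817 windows searched was 49.7% of the window. The Nfix windows at 84780082, 84775828 and 84772875, which no peak overlapped, were 60%, 52% and 47.3% pyrimidine. Because this is 1 window shown for its peaks, no preference of peaks for pyrimidines can be read from it. Across the table, 0.302% of the 32817 windows were overlapped by a peak on the strand of their gene (99 windows). Of the 7 windows of family members, 1 was. The arms TTGGC or GCCAA, searched as these letters and so on both strands, occurred 3 times in the Gm19417 window, 2, 1, 1 and 0 times in the windows of the 4 Nfix starts at 84772875, 84773410, 84775828 and 84780082, and not in those of Nfia and Nfic. Of all windows, 46.7% held at least 1 arm and 3.75% held at least 3. The full palindrome, with 5 bases between the arms, was in none of the 7 windows and in 0.0366% of all.

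DHX9 peaks lay in 3 of the 4 nuclear factor I genes, and in large numbers. A peak was present in 18.9% of the 21900 protein-coding genes of the annotation, and at least 50 peaks in 0.626% of them, a number that Nfia, Nfib and Nfix each passed. Nfia held 339 peaks over a span of 540.8 kb (chromosome 4, 97578066 to 98118876, mm10), the third highest number of any protein-coding gene. Nfib held 206 over 216.6 kb (chromosome 4, 82290173 to 82506751) and was 12th. Nfix held 79 over 96.5 kb (chromosome 8, 84704712 to 84801238) and was 60th. Nfic, the shortest of the family at 35.7 kb (chromosome 10, 81396191 to 81431919), held 0, and no peak lay within 30 kb on either side of it. Among protein-coding genes with spans of 25 to 50 kb, 27.6% had a peak, so a gene of this length without one was common.

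**Figure D1:**
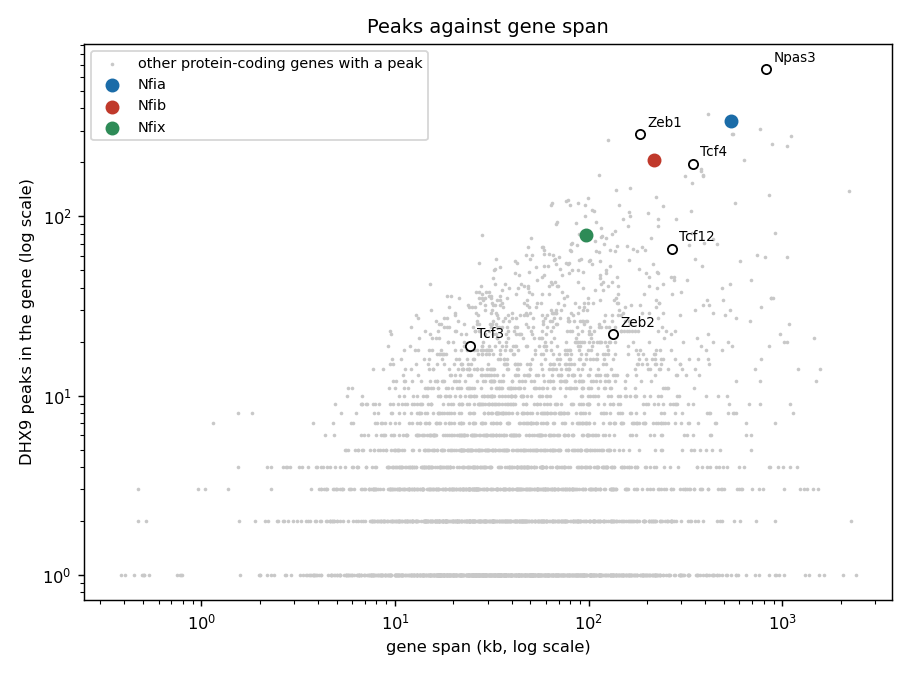
DHX9 peaks per gene against gene span, both on log axes, for the 4133 protein-coding genes with a peak. Coloured points are Nfia (339 peaks), Nfib (206) and Nfix (79), open circles are 6 other transcription factor genes, and Nfic, with 0 peaks, cannot be drawn on a log axis.

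Per kb of span, where gene length is taken into account, the 3 genes were closer to each other. The density was 0.627 peaks per kb in Nfia, 0.951 in Nfib and 0.818 in Nfix. The median over protein-coding genes with a peak was 0.102 per kb, the 75th percentile 0.282 and the 95th percentile 0.953. By density all 3 genes lay between these percentiles, Nfib close to the upper one, with ranks of 434 for Nfia, 208 for Nfib and 278 for Nfix. Long genes with a peak usually had a lower density. Of the 4718 protein-coding genes with spans of 50 to 500 kb, 36.1% had a peak, and those had a median of 5 peaks and of 0.0434 peaks per kb. The 95th percentiles in that class were 58 peaks and 0.562 per kb, which Nfib and Nfix exceeded on both measures. Counting the peaks that lie in no other gene, Nfib had 77 at 0.356 per kb of the same span, while Nfix kept 0.818 per kb. Per kb of Nfib outside 2310067E19Rik, the density was 0.457. Both Nfib values were under that percentile, which itself counts all peaks of the genes in the class. The span of Nfia lies just above the class.

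Other transcription factor genes were set beside the family because several of them are also long. Npas3, a neural gene, had 661 peaks at 0.802 per kb. Zeb1, which encodes a zinc finger repressor, had 287 at 1.56 per kb, while its paralog Zeb2 had 22 at 0.164 per kb. Among the E-protein genes, Tcf4 had 197 (0.572 per kb), Tcf12 66 (0.247 per kb) and Tcf3 19 (0.778 per kb). The 3 nuclear factor I genes with peaks thus fell within the range of densities of these genes. As in the ZEB pair, paralogs differed widely in number. Per kb, Zeb1 and Zeb2 still differed widely, while Nfia, Nfib and Nfix lay between 0.627 and 0.951 and Nfic had no peak.

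The strand of the peaks was the same throughout each gene. All 339 peaks of Nfia were on the plus strand, on which the table lists the gene, and all 79 of Nfix were on the minus strand, on which it is listed. All 206 of Nfib were on the minus strand, and Nfib was read along that strand. Over the list, 99.5% of the 30405 peaks that lay in a single gene, protein-coding and with a listed strand, were on the strand of that gene.

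Within Nfia the peaks were packed into a stretch in the middle of the gene. In 5 equal parts of the span, read in the direction of transcription, 2, 44, 240, 11 and 42 peaks were found. The middle part thus held 70.8% of them (exact 95% binomial interval by Clopper-Pearson 65.6 to 75.6%, which takes peaks as independent) and the first part 0.59%. The first peaks, of 131 and 78 bases, lay 66.2 kb into the gene (97644221 to 97644351 and 97645089 to 97645166), and the next one came 127.5 kb later. From 205.1 to 322.8 kb, 279 peaks followed each other with less than 2 kb between neighbouring midpoints, at 2.37 per kb. This run, which covers 97783160 to 97900897, held 82.3% of the gene's peaks in 21.8% of its span. Another run of 29 peaks lay from 506.0 to 526.2 kb, near the 3′ end, and 31 peaks lay outside both.

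No other run in a protein-coding gene held as many peaks. By the same definition, with at least 10 peaks a run, 618 protein-coding genes had 907 runs, with a median of 15 peaks over 7.31 kb. Only 43 runs had 50 or more. The long run of Nfia was first among the 907 by number of peaks, the longest of Nfib the third and the longest of Nfix 90th.

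Within Nfib the peaks were concentrated near the 5′ end, in the stretch shared with 2310067E19Rik. The 5 equal parts of the span held 98, 69, 8, 2 and 29 peaks, so that the first held 47.6% (exact 95% binomial interval 40.6 to 54.6%). Of the 77 peaks that lie in no other gene, 5.19% were in that part, of which only the first 8.52 kb lie outside 2310067E19Rik. The density in those 8.52 kb was 0.47 per kb, beside 0.457 per kb in all of Nfib outside the noncoding gene. The first peak lay 1.06 kb into the span. The longest run reached from 8.07 to 58.4 kb, with 134 peaks at 2.66 per kb. It was followed by runs of 22 peaks (61.6 to 74.1 kb) and 16 peaks (80.2 to 90.9 kb). After that the gene was almost empty for a long stretch, with no peak from 133.9 to 178.9 kb. A short and dense run of 15 peaks, at 3.0 per kb, came directly behind the gap, from 178.9 to 183.9 kb.

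Nfix, like Nfib with its shared peaks included, had most peaks in the first part of its span, and all 79 lay in no other gene. Its 5 equal parts held 34, 14, 13, 7 and 11 peaks, with 43.0% in the first (exact 95% binomial interval 31.9 to 54.7%). The first peak lay 0.92 kb into the span and the last one 0.279 kb before its end. A run of 34 peaks filled the stretch from 0.92 to 18.6 kb, and runs of 11, 10 and 10 peaks followed, the last of them from 90.9 to 96.2 kb. A gap of 20.6 kb, from 66.8 to 87.3 kb, separated the last 11 peaks from the others. Over 10 equal parts of the span, the counts of Nfix and Nfib had a Pearson correlation of 0.691, and those of Nfia correlated at -0.448 with Nfib and at -0.124 with Nfix. These correlations describe 10 parts of 2 genes, which are not independent points, and those of Nfib include the peaks shared with 2310067E19Rik.

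**Figure D2:**
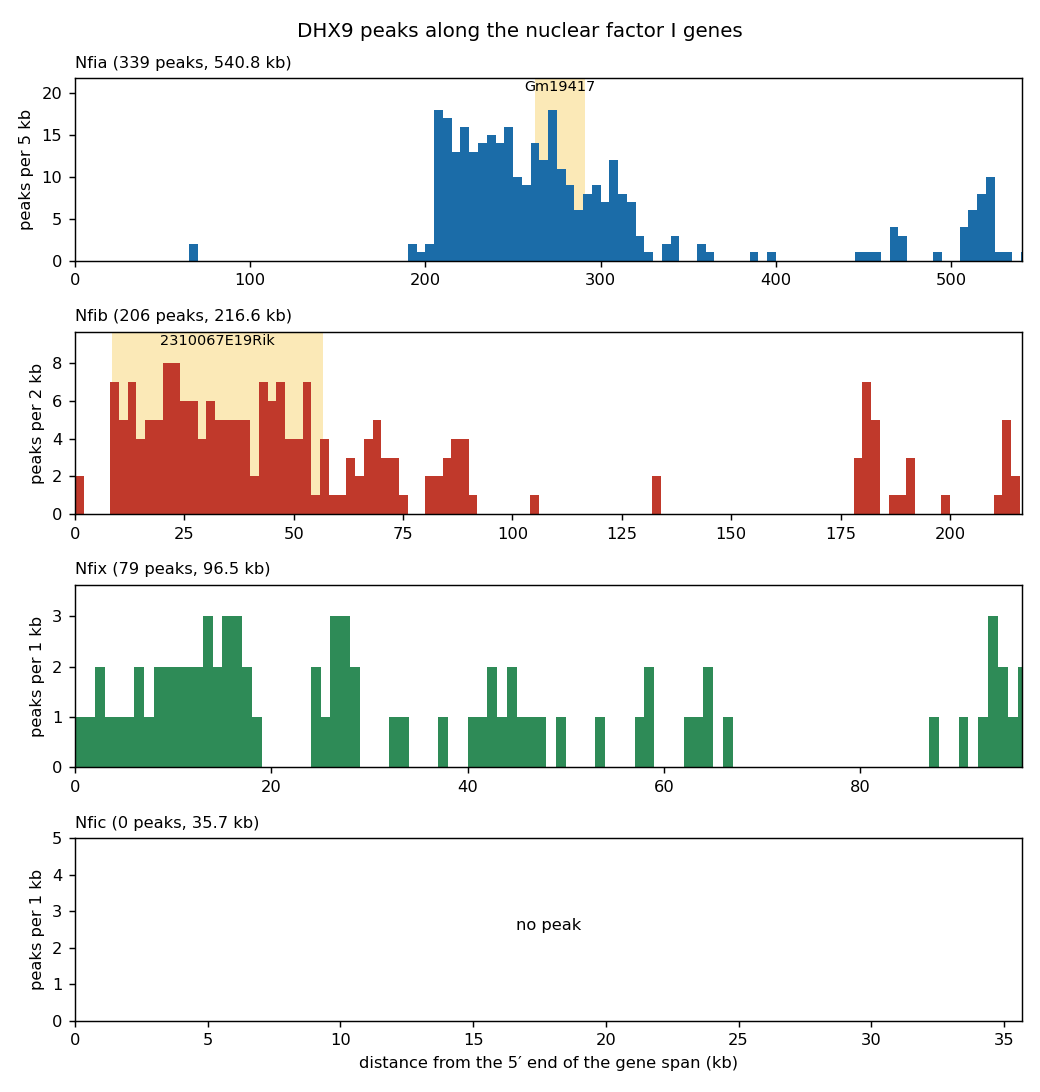
Number of DHX9 peaks along each nuclear factor I gene, from its 5′ end to its 3′ end in kb; the bars are 5 kb wide for Nfia, 2 kb for Nfib and 1 kb for Nfix and Nfic, and shading marks the nested noncoding genes. Nfia has a block of 279 peaks that starts 205.1 kb into the gene, the peaks of Nfib and Nfix are most frequent in the first of 5 equal parts, and Nfic has none.

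The 4 starts of Nfix in the RefSeq windows divided its peaks. The annotated span reached 21.2 kb further upstream of them and held 34 peaks there (1.61 per kb). These peaks thus lie inside the annotated gene, whose outermost start is not among the 4. The 4.25 kb from the start at 84780082 to the one at 84775828 held 2 (0.47 per kb), the lowest density of the 5 stretches. Between the start at 84775828 and the one at 84773410, 7 peaks lay in 2.42 kb (2.89 per kb). The next 0.535 kb, up to the start at 84772875, held 1 (1.87 per kb), and the 68.2 kb after the last of the 4 starts held 35 (0.513 per kb). In Nfia, no peak lay within 3 kb of the annotated start at 97581943, and the first one was 62343 bases behind it. The span of Nfia also begins before that start, at 97578066.

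The ends of the genes also carried peaks. The last 10 kb held 11 peaks in Nfix, 8 in Nfib and 2 in Nfia, and the last 40 kb held 19, 29 and 31. In the last of 10 equal parts, the density was 1.14 peaks per kb in Nfix, 0.416 in Nfib and 0.592 in Nfia. Over the whole span it was 0.818, 0.951 and 0.627, so only Nfix was denser there. The final peak of Nfia lay 0.0675 kb from the annotated end, and that of Nfib 0.907 kb from it. Beyond the spans, no peak was called within 30 kb of Nfib. Within 30 kb of Nfia there was 1, on the minus strand in E130114P18Rik, a noncoding gene listed on that strand that overlaps the 5′ end of Nfia. The 9 near Nfix lay in the neighbouring genes Nacc1, Trmt1 and Dand5.

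The nested noncoding gene 2310067E19Rik coincided with the densest long stretch of Nfib. It spans 48.2 kb (chromosome 4, 82450058 to 82498232) and held 129 peaks, all on the minus strand, which is 62.6% of the peaks of Nfib in 22.2% of its span. The density was 2.68 peaks per kb inside it and 0.457 per kb in the rest of Nfib. Peaks covered 54.9% of its bases. The longest run of Nfib began 0.444 kb before the 5′ end of 2310067E19Rik, read along the minus strand, and ended 1.72 kb after its 3′ end, so 129 of the 134 peaks of the run (96.3%) lay within the noncoding gene. The 8.52 kb of Nfib before it held 4 peaks (0.47 per kb), and the 48.2 kb after it held 42 (0.872 per kb). Within it the peaks were spread evenly, with 26, 32, 25, 25 and 21 in 5 equal parts. RNA of Nfib and RNA of 2310067E19Rik cannot be told apart in these 129 peaks where both run along the minus strand.

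Gm19417 did not coincide with the dense stretch around it, and unlike 2310067E19Rik it has a listed strand. The strand of 2310067E19Rik was read from its peaks, so the nested genes cannot be compared by strand. Gm19417 spans 28.2 kb (chromosome 4, 97840840 to 97869009) and held 63 peaks, or 18.6% of those of Nfia, at 2.24 per kb. All 63 were on the plus strand, the strand of Nfia, whereas Gm19417 is listed on the minus strand, as its window above shows. None of the peaks in Gm19417 was thus on its own strand. The peak nearest to its start on the downstream side lay 366 bases from it, on the opposite strand. The long run of Nfia went on beyond Gm19417 on both sides, by 57.7 kb on the 5′ side and by 31.9 kb on the 3′ side. Stretches of equal length before and after Gm19417 held 73 and 50 peaks, at 2.59 and 1.77 per kb, so the density inside it lay between those of its neighbours. In the whole list, 771 peaks lay in a long noncoding gene and a protein-coding gene listed on opposite strands, and 87.4% of them (674) were on the strand of the protein-coding gene.

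**Figure D3:**
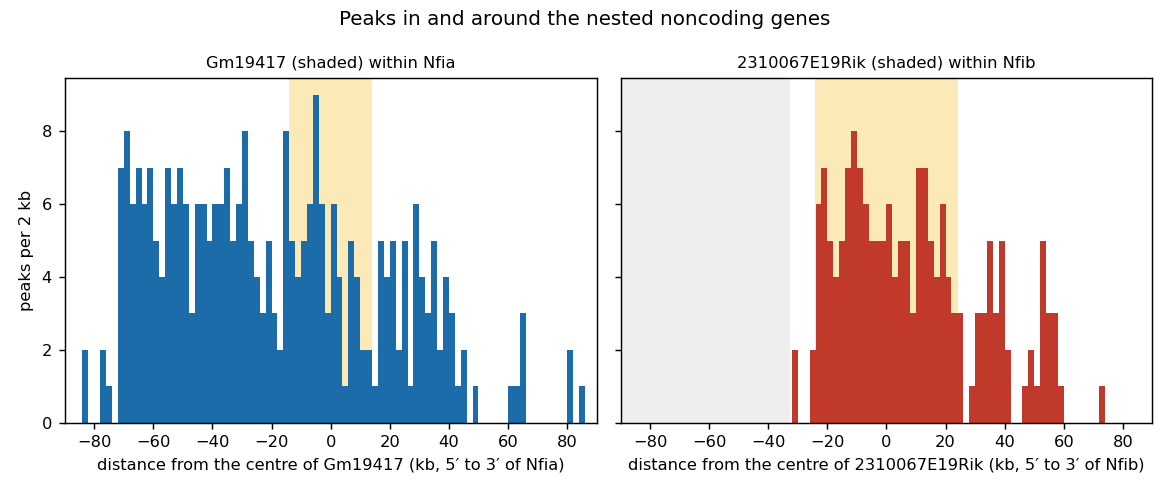
DHX9 peaks per 2 kb in and around Gm19417 (left, within Nfia) and 2310067E19Rik (right, within Nfib), by distance from the centre of the shaded noncoding gene along the direction of its host; grey marks positions before the 5′ end of Nfib. Peaks run through and beyond Gm19417 on both sides, while the dense block of Nfib has nearly the same ends as 2310067E19Rik.

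The remaining noncoding genes that overlap the family held few peaks. Within Nfia, Gm38709 held 2 and Gm40208 held 1, all on the plus strand, and Gm34218 held 0. G430095P16Rik in Nfix, and Gm16104, Gm51811 and the microRNA gene Mir1191b in Nfic, held 0.

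Along the longest runs of Nfia and Nfib, the last full window held fewer peaks than the first. In the run of Nfia, successive full windows of 10 kb held 35, 29, 27, 30, 26, 22, 31, 19, 14, 17 and 20 peaks. The first 4 windows lay between 27 and 35 and the last 4 between 14 and 20, while those between them held 26, 22 and 31. This grouping followed no rule set beforehand. The windows start at the first peak of a run, and runs of other genes were not divided in this way. The summed length of peaks was 6.86 kb in the first of these windows and 3.04 kb in the last. In the run of Nfib, windows of the same width held 28, 33, 25, 28 and 19 peaks, with summed lengths of 6.63 kb in the first and 3.64 kb in the last. Only the last of these Nfib windows lay below 25. Windows of a gene share its transcripts and are not independent, so these counts are given without a test.

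**Figure D4:**
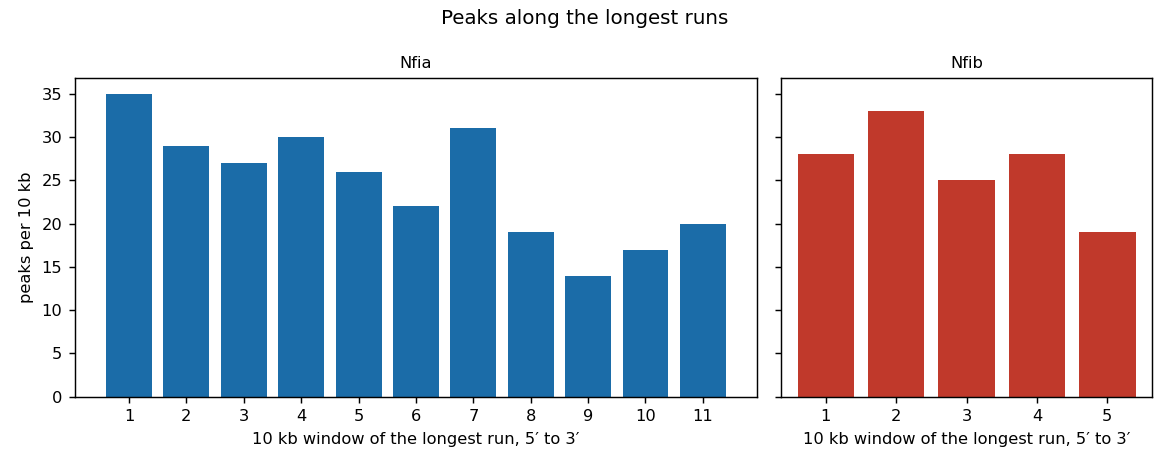
DHX9 peaks in successive full 10 kb windows of the longest run of Nfia (left, 11 windows) and of Nfib (right, 5 windows), from 5′ to 3′. The last 4 Nfia windows hold 14 to 20 peaks, the first 4 hold 27 to 35, and those between them hold 26, 22 and 31. The last Nfib window, with 19, is the lowest of its 5.

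As called, neighbouring peaks lay closer together in Nfia than in Nfix. The median distance between midpoints was 364 bases in Nfia (exact 95% interval of the median 332.5 to 399.5, 338 distances), 379 in Nfib (345 to 421, 205 distances) and 557.2 in Nfix (416 to 807, 78 distances). The interval of Nfix lies above that of Nfia and its lower end falls just inside that of Nfib. These intervals take neighbouring distances in a gene as independent, so they do not test a difference between the genes. Between the end of a peak and the start of the next, the median gap was 144.5 bases in Nfia, 173 in Nfib and 356 in Nfix. Distances under 500 bases made up 68.0% of those in Nfia, 69.3% in Nfib and 47.4% in Nfix. Over the 504 protein-coding genes with at least 20 peaks, the middle part of the gene medians ran from 381.9 (25th percentile) to 616.9 bases (75th percentile). Overlapping genes that share peaks each count among the 504. Examples are the Pcdhga and Pcdhgb genes, at medians of 767.5 or 775.75 bases. As called, Nfia and Nfib lay just below that range and Nfix inside it, with 99 of the 504 genes more closely spaced than Nfia, 121 more than Nfib and 338 more than Nfix. With peaks within 50 bases of each other merged, the medians were 562.5 bases in Nfia, 475 in Nfib and 729 in Nfix, which turns the order of Nfia and Nfib. Peaks in no other gene gave 367.2 bases in Nfia, 539.8 in Nfib and 557.2 in Nfix. Inside the nested genes the median was 343.8 bases in 2310067E19Rik and 336.5 in Gm19417.

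**Figure D5:**
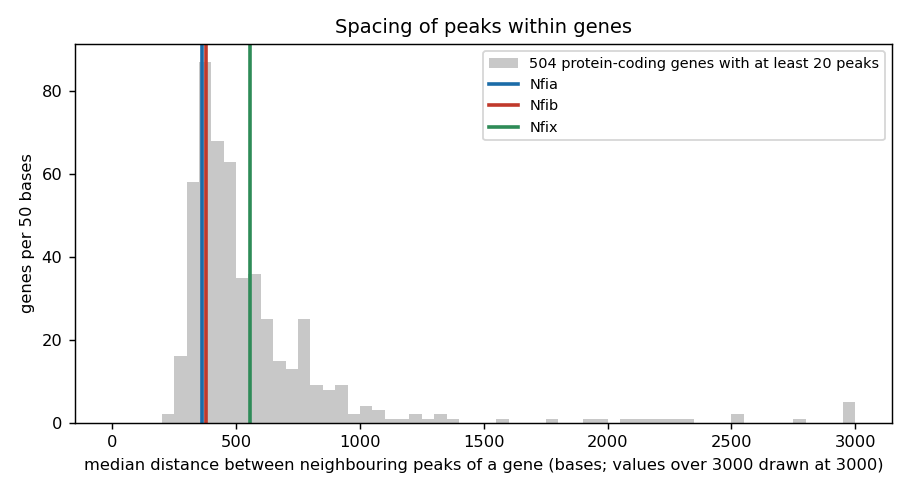
Median spacing of peak midpoints in each of the 504 protein-coding genes with at least 20 peaks (grey, genes per 50 bases), with lines for Nfia (364 bases), Nfib (379) and Nfix (557.2). Nfia and Nfib lie at the lower side of the distribution and Nfix lies between the median (463.6) and the 75th percentile (616.9) of the genes; the few values beyond the axis are drawn at its right edge.

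The peaks of the family were of ordinary to slightly greater length. The median was 172 bases in Nfia, 166.5 in Nfib and 155 in Nfix, against 153 in the whole list, and 179 in 2310067E19Rik. Over the 504 genes the gene medians had a 25th percentile of 148 and a 75th percentile of 168. The longest was 557 bases, in the part of Nfib shared with 2310067E19Rik (82471372 to 82471928). That of Nfia was 511 bases, in the part shared with Gm19417 (97856633 to 97857143), and that of Nfix 490 bases (84784727 to 84785216). Peaks covered 12.0% of the span of Nfia, 18.3% of that of Nfib and 15.4% of that of Nfix. Over the 504 genes, the median cover was 8.67% and the 75th percentile 16.5%. A higher cover was found in 181 of the 504 genes for Nfia, 103 for Nfib and 137 for Nfix. With peaks in no other gene, Nfib had a cover of 6.09% of its whole span and a median length of 150 bases. That span includes 2310067E19Rik, and the values of the 504 genes use all their peaks.

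Genes with a like distribution over 10 parts of their span were found among the 503 other protein-coding genes with at least 20 peaks. For Nfia, these were Ppp2r2b (Pearson r = 0.952, 22 peaks), Fbxl7 (0.908, 58) and Vcan (0.892, 29). For Nfib, they were Tcf7l1 (0.94, 143 peaks), Ube2k (0.94, 53) and Pik3r3 (0.938, 50), and for Nfix, Gpm6b (0.855, 97), Septin2 (0.852, 25) and Spred2 (0.842, 126). The likeness is in the position of the peaks within each gene, over 10 points, and these genes were picked from 503 for it.

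Genes that work with nuclear factor I proteins or are reported to be under their control were examined as a list of 24. A peak was present in 12 of them (50%, exact 95% binomial interval 29.1 to 70.9%), beside 18.9% of all protein-coding genes. At least 3 peaks were present in 7 of the 24, beside 11.4% of all protein-coding genes. Most peaks were in Slc1a3, the glial glutamate transporter gene, with 122 (1.59 per kb). Zcchc24 had 28, and Notch1, the receptor whose signalling precedes Nfia induction in progenitors, had 21. Ezh2, a Polycomb methyltransferase gene, had 6, Stat3 5, Fabp7, which encodes a brain fatty acid binding protein, 4, and the Notch effector gene Rbpj 4. Zbtb18, Olig2 and Sox4 had 2 each, and both peaks of Sox4 also lay in another annotated gene. Sox9, whose product induces Nfia and then acts with it, had 1, as did Bbx. No peak was called in the other 12, which were Hes1, Hes5, Hey1, Gfap, Aqp4, S100b, Apcdd1, Mmd2, Insc, Pou3f2, Id4 and Pax6. The list was drawn up from general knowledge, but it was chosen with earlier results of these data known. Its members are of very different length, and expression was not matched. An excess over all protein-coding genes can therefore not be read from the interval.

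Of 12 neural progenitor markers, 4 had a peak (33.3%, exact 95% binomial interval 9.92 to 65.1%), beside 18.9% of all protein-coding genes: Slc1a3, Notch1, Fabp7 and Vim. Sox1, Sox2, Pax6 and Nes were among those with none. Of the markers of other cells, a peak was found in 1 of 6 for neurons (Map2, interval 0.421 to 64.1%), in 1 of 7 for astrocytes and oligodendrocytes (Olig1, 0.361 to 57.9%) and in 0 of 5 for pluripotent cells (up to 52.2%). All these intervals include the share over all protein-coding genes. Of 6 markers of mesoderm, endoderm and fibroblasts, 4 had a peak (66.7%, interval 22.3 to 95.7%, which lies above that share). The 4 were Col3a1 with 28, Col1a1 with 7, Col1a2 with 2 and Pdgfra with 1, while Sox17 and Gata4 had none. These markers were matched neither for length nor for expression, and the lists were chosen with earlier results known. An excess over all protein-coding genes can therefore not be read from this interval. A called peak depends on the RNA present and on its binding, so these counts do not measure the makeup of the culture. Their part in the values of the family was not tested.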

How the data were processed

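The study sequenced RNA bound by DHX9 in 2 antibody libraries, beside 2 IgG libraries, from mouse neural progenitor cells. Per the labels' protocols, random tags in the adapters served to merge PCR duplicates and other tags to tell replicates A and B apart. The submitters' processing notes name Bowtie2 2.2.6 and the builds mm10 and hg19. The authors deposited 1 PEAKachu peak list for all libraries, whose values used here are positions (start, end and strand) per the file headers and columns, with no score. The caller's version, settings and threshold, and how it used the IgG libraries, are not given in the sources used here.

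Peaks were assigned by midpoint to gene spans of RefSeq (GRCm38.p6, the mm10 assembly), with Python 3.11.15, numpy 2.4.6, pandas 2.3.3, scipy 1.17.1 and matplotlib 3.10.9. No filter was set on peaks. Gene strands came from the RefSeq start windows. Nfib and 2310067E19Rik have no entry there and were read on the strand of their peaks. Exons were not used here. Spacing, cover and likeness used protein-coding genes with at least 20 peaks, and overlapping genes each counted with the peaks they share. A run joins neighbouring midpoints under 2 kb apart and needs at least 10 peaks, a definition set after the peaks had been seen.

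Named are all 6 members, the list of 24 genes, 6 comparison genes and the 3 genes most like each member in position. Other genes that overlap or adjoin the members were named after their values were seen. Members and lists were chosen with earlier results of these data known. There is 1 list and so no replicate, and no test of chance was run. Exact binomial intervals at 95% and order-statistic intervals of medians treat peaks as independent, which neighbours in a gene may not be. Assignment, strand and spacing were tested on simulated, evenly spaced peaks in genes that no other gene overlaps, with a single strand per gene. Peaks shared by nested genes were not simulated. Alternatives were any overlap of at least 1 base, peaks no shorter than the median, merging within 50 bases, peaks in no other gene, 10 parts in place of 5, distances between peak ends, the majority strand, and at least 3 peaks per gene.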

Additional observations from a re-analysis of the deposited data

How the results depend on the processing

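Of 124 values under the alternatives, 91 stayed within 1.5 times the count or within the interval set for them, and 33 moved. None moved with any overlap of at least 1 base or with the majority strand. All peaks of each member lay on 1 strand, so their majority-strand values and shares of peaks on that strand could not move. The values of Nfic, at 0 peaks, could not move either. Distances between peak ends and shares of 10 parts are other measures than the main ones, and all of them moved. The tally of 91 and 33 thus includes values fixed in advance. With peaks no shorter than the median, Nfia, Nfib and Nfix held 199, 123 and 42 peaks, at 0.368, 0.568 and 0.435 per kb. Their median spacings were then 489, 523.2 and 863.5 bases and their median lengths 214, 203 and 221 bases, both by construction larger with fewer peaks. The fullest of 5 parts held 77.4% in Nfia and 57.7% in Nfib, and Gm19417 held 35 peaks. Merging within 50 bases gave spacings of 562.5 bases in Nfia and 475 in Nfib, and lengths of 185 and 184 bases. Leaving out peaks that lie in another gene as well took the nested part out of Nfib, which kept 77 peaks at 0.356 per kb, a spacing of 539.8 bases, a length of 150 bases, a cover of 6.09% and 5.19% in the first of 5 parts. The middle part of Nfia then held 64.8%. Distances between peak ends were 144.5, 173 and 356 bases in Nfia, Nfib and Nfix. With 10 parts, the fullest held 42.5%, 27.7% and 26.6%. At least 3 peaks were found in 7 of the 24 listed genes, beside 11.4% of all protein-coding genes. No paired analysis was possible because the list holds no value per library, and no replicate was left out for the same reason. Depth is unknown, so a gene at 0 peaks has no limit on its binding. Peaks carry no height, so a strong and a weak one count alike, and neighbouring peaks may share 1 bound stretch. Spans join all annotated transcripts of a gene.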
